A study of Mus musculus with 4 samples.

Results

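The G1 group examined here comprises 10 genes that govern the passage of a cell through G1: the D-type cyclins Ccnd1, Ccnd2 and Ccnd3, the E-type cyclins Ccne1 and Ccne2, the kinases Cdk4 and Cdk6, the inhibitors Cdkn1b and Cdkn2c, and the transcription factor gene Myc. The genes were chosen by name, with earlier results of these data known. All 26 probe sets that the array annotation assigns to them alone were used, of 45037 probe sets and 18193 genes read on the array. Whole kidneys of male C57Bl/6 mice were profiled in 4 groups: Tet2KO_IR, Tet2KO_Sham, WT_IR and WT_Sham, where IR stands for renal ischemia of 60 min and then reperfusion of 24 h, WT for wild type and Tet2KO for mice labelled as lacking Tet2, a DNA demethylation enzyme. A group is represented by 1 array, hybridised with the pooled RNA of 3 mice, so there is no replicate error, no test and no p-value, and precision is limited by the array number. The age of the mice and the part of Tet2 that was deleted, or in which cells, are not given in the sources used here.

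In G1, D-type cyclins bind CDK4 or CDK6, and the active kinases phosphorylate RB, which releases E2F transcription factors. Cyclin E with CDK2 completes that phosphorylation and starts S phase, whereas p27, the product of Cdkn1b, blocks cyclin E with CDK2, and p18, the product of Cdkn2c, blocks CDK4 and CDK6. MYC raises transcription of growth and cell cycle genes. After ischemic injury, surviving tubule cells of the kidney are known to re-enter the cycle and replace lost neighbours.

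Values are log2 signals as deposited. A signal below the floor of 5.72, the 40th percentile of all signals, was set to the floor for ratios, and a gene counted as measured in a comparison when 1 or more of its arrays reached the floor. Tet2 itself did not separate the labels after sham: its brighter probe set had log2 signals of 8.60 in Tet2KO_IR, 10.25 in Tet2KO_Sham, 9.30 in WT_IR and 9.84 in WT_Sham, and the other probe set 8.74, 9.87, 9.16 and 9.96 in these arrays. Where these probe sets lie relative to the deletion is not known here, so the arrays are called labelled Tet2KO, and each direction between genotypes is one between labels. Over all probe sets the array correlations ran from r = 0.963 to r = 0.993, with the lowest between Tet2KO_IR and Tet2KO_Sham. As a technical yardstick, the log2 ratios of probe sets of the same gene had an SD of 0.39 for Tet2KO_IR over Tet2KO_Sham, 0.23 for WT_IR over WT_Sham, 0.32 for Tet2KO_IR over WT_IR and 0.18 for Tet2KO_Sham over WT_Sham, which leaves out differences between mice.

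After ischemia-reperfusion, Myc and Cdk6 were at least 2-fold above sham under either genotype label. Cdk4 and Ccnd1 were higher by smaller amounts, and Cdkn1b and Cdkn2c lower, again under either label. In the arrays labelled Tet2KO, 2 of the 9 measured members were at 2-fold or more and both were higher, where 12.9% of all 13600 measured genes were at 2-fold in either direction and 6.06% were higher. In the WT arrays 2 of 10 members were at 2-fold, both higher, where 4.24% of 13531 genes were at 2-fold and 2.06% higher. The median log2 ratio of the members was 0.22 in the arrays labelled Tet2KO and 0.36 in the WT arrays, beside -0.02 and 0.02 over all measured genes of the same comparisons.

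**Figure D1:**
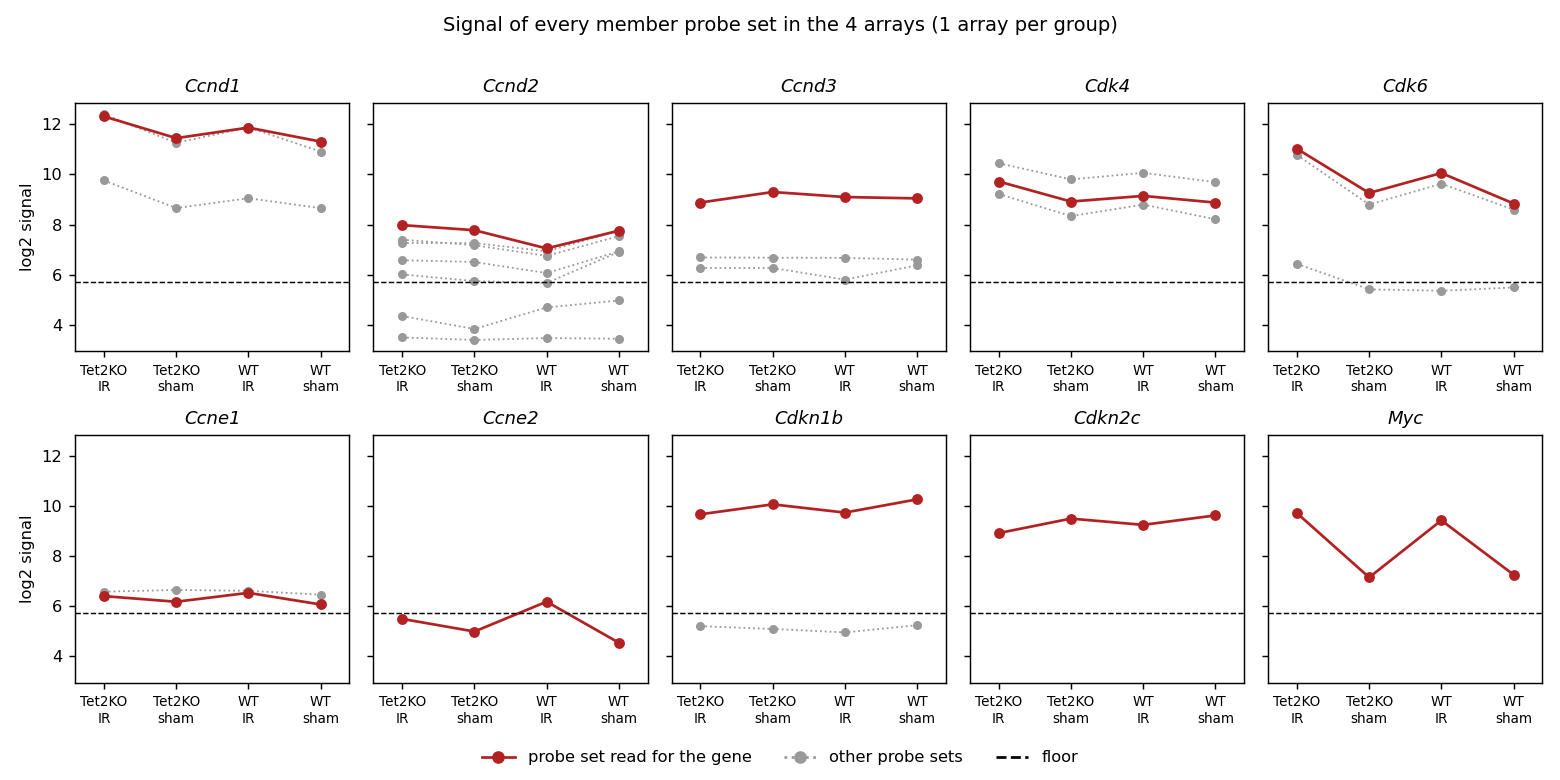
Log2 signal (y axis) of every probe set of the 10 genes in the 4 arrays (x axis, IR for ischemia-reperfusion), 1 point per array. Red joins the probe set read for the gene, grey the others, and the dashed line is the floor of 5.72; the red points of Myc and Cdk6 stand higher in both ischemia-reperfusion arrays than in both sham arrays, while those of Ccnd2 are lowest in WT_IR.

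Myc, whose product forms a dimer with MAX at E-box DNA, had log2 signals of 9.71 in Tet2KO_IR, 7.15 in Tet2KO_Sham, 9.42 in WT_IR and 7.26 in WT_Sham. Both ischemia-reperfusion arrays were above both sham arrays. How many of all genes order their arrays in this way was not counted, here and for the members below. The log2 ratio to sham was 2.57 (5.92-fold) in the arrays labelled Tet2KO, where it ranked 96 of 13600 genes from the highest, and 2.17 (4.498-fold) in the WT arrays, where it ranked 32 of 13531. Myc has 1 probe set, so no other probe set checks these values.

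Cdk6, a catalytic partner of the D-type cyclins, had log2 signals of 11.02 in Tet2KO_IR, 9.26 in Tet2KO_Sham, 10.06 in WT_IR and 8.84 in WT_Sham. The order was the same in its second bright probe set, with 10.78, 8.80, 9.63 and 8.60 in these arrays: the array labelled Tet2KO was the higher at each treatment, and both ischemia-reperfusion arrays exceeded both sham arrays. The log2 ratio to sham was 1.76 (3.39-fold) in the arrays labelled Tet2KO and 1.22 (2.33-fold) in the WT arrays, ranks 237 and 181 from the highest. On the other bright probe set these ratios were 1.98 and 1.03. Its dim probe set reached the floor only in Tet2KO_IR, at 6.43. The WT call depended on its control: against Tet2KO_Sham the log2 ratio of WT_IR was 0.80, and 1 member, Myc, was then at 2-fold.

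Cdk4, the other D-cyclin kinase, had log2 signals of 9.72 in Tet2KO_IR, 8.92 in Tet2KO_Sham, 9.14 in WT_IR and 8.88 in WT_Sham. Tet2KO_IR was the high array, and the 3 others lay closer together. The log2 ratio to sham was 0.80 in the arrays labelled Tet2KO, with 0.65 to 0.89 over its 3 probe sets, and 0.27 in the WT arrays, with 0.27 to 0.58. All 3 probe sets were above 0 in both comparisons, and none reached 2-fold.

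The upstream sequences of Cdk4 and Cdk6 are shown because the E-box CACGTG, the letters bound by MYC with MAX, occurs in both. Both were picked for these letters, and the sequence of Cdkn1b, which lacks them, is shown beside them. They are the 250 bases before the annotated start, 5′ to 3′, from RefSeq on GRCm38.p6: Cdk4 at chr10:127063285-127063534, plus strand, Cdk6 at chr5:3343643-3343892, plus strand, and Cdkn1b at chr6:134920151-134920400, plus strand. Capitals mark E-boxes (CACGTG) and GC boxes (GGGCGG, or CCGCCC on the other strand).
Cdk4: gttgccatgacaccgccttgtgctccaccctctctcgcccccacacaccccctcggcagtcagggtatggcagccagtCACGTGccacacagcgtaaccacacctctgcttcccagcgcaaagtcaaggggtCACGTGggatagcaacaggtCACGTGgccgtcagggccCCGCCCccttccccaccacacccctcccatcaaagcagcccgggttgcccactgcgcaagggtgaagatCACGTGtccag
Cdk6: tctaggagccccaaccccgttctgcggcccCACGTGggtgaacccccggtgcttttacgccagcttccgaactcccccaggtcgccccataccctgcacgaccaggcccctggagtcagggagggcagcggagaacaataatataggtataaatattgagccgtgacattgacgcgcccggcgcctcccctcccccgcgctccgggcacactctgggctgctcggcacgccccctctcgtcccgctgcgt
Cdkn1b: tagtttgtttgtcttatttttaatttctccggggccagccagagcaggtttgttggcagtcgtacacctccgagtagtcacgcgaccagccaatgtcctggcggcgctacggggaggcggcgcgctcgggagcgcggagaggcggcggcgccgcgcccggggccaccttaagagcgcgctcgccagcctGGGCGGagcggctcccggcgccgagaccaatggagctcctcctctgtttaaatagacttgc

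Cdk4 held 4 E-boxes, with their starts at -172, -118, -98 and -11 relative to the annotated start, and Cdk6 held 1, at -220. Of the 32851 upstream entries of the same length for all genes, 6.02% held an E-box and 7 (0.0213%) held 4 or more. The cutoff of 4 was taken from Cdk4 itself, so this share does not test Cdk4. The table had entries for 6 of the 10 genes, 8 entries in all, and had none matched for Ccnd1, Ccnd2, Ccne2 and Myc. In the other entries, for Ccnd3, Ccne1, Cdkn1b and Cdkn2c, the E-box letters did not occur. Of these genes, Ccne1 had log2 ratios to sham of 0.22 under the Tet2KO label and 0.46 under WT. Its other probe set gave -0.07 and 0.16. Under the same labels Ccnd3 had -0.42 and 0.05, Cdkn1b -0.40 and -0.53, and Cdkn2c -0.58 and -0.38. GC boxes, which are in 32.7% of all entries, occurred in 6 of the 8. The letters TTTGGCGC or TTTCCCGC (an E2F motif, in 1.3% of entries), TGANTCA (AP-1, in 6.75%) and TGACGTCA (CRE, in 1.55%), searched on both strands, occurred in none of the 8. No motif match overlapped another. These are matches of letters in this window only. Binding was not measured, and a part of MYC in these signals was not tested.

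**Figure D2:**
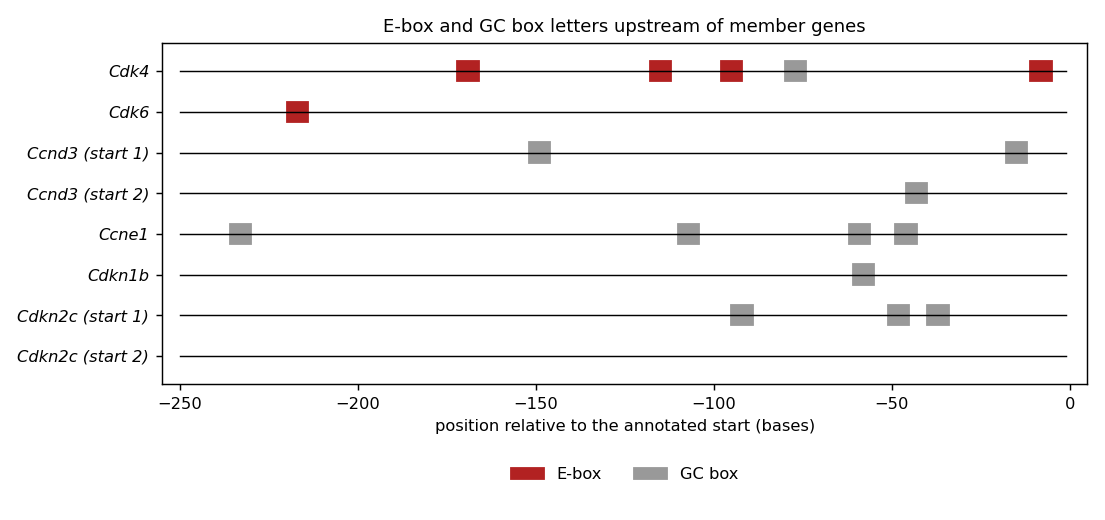
Positions of E-box (red) and GC box (grey) letters in the 250 bases upstream of the annotated start (x axis, bases relative to the start) for the 8 entries of 6 member genes (y axis). The 4 E-boxes of Cdk4 and the 1 of Cdk6 are the only E-boxes in these entries.

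Ccnd1, the D-type cyclin best known as a target of growth factor signalling, had log2 signals of 12.32 in Tet2KO_IR, 11.45 in Tet2KO_Sham, 11.87 in WT_IR and 11.31 in WT_Sham. Both ischemia-reperfusion arrays were above both sham arrays. The log2 ratio to sham was 0.87 (1.83-fold) in the arrays labelled Tet2KO and 0.56 (1.47-fold) in the WT arrays. Its 3 probe sets gave 0.87 to 1.14 under the Tet2KO label and 0.40 to 0.97 under WT, so the 2-fold line was passed on some probe sets only in the arrays labelled Tet2KO. At a threshold of 1.5-fold, Ccnd1 and Cdk4 joined Cdk6 and Myc in the arrays labelled Tet2KO, 4 of 9 members where 29.1% of genes were called. In the WT arrays 3 of 10 members were called at 1.5-fold, with Ccnd2 lower beside Cdk6 and Myc, where 12.3% of genes were called.

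Ccnd2, a D-type cyclin that many cell types use in place of or beside Ccnd1, did not follow that pattern. Its log2 signals were 7.98 in Tet2KO_IR, 7.77 in Tet2KO_Sham, 7.05 in WT_IR and 7.75 in WT_Sham. On the probe set read for the gene, WT_IR was low and the 3 other arrays lay close together. The log2 ratio to sham was 0.20 in the arrays labelled Tet2KO and -0.71 in the WT arrays, where it was at position 621 of 13531 from the lowest. Of its 7 probe sets 2 were under the floor in every array. On the other 5 the ratio lay between -0.003 and 0.27 under the Tet2KO label and between -1.19 and -0.71 under WT. All 5 were lower in WT_IR than in WT_Sham. Except on the probe set read for the gene, WT_Sham was also the highest array. For example, 1 probe set had 7.26 in Tet2KO_IR, 7.26 in Tet2KO_Sham, 6.93 in WT_IR and 7.76 in WT_Sham.

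Sums of markers of endothelium, stroma and fat were also lower in WT_IR than in WT_Sham. They were not alone, as the podocyte, macrophage, urothelium, proximal tubule, distal tubule and collecting duct sums were lower there too. The podocyte sum was 392 in WT_IR and 1328 in WT_Sham, and the proximal tubule sum 63957 and 86825. The injured tubule and neutrophil sums were higher in WT_IR, and the lymphocyte sums were 539 and 542. Of 3 measured neutrophil markers, 1, S100a8, was at least 2-fold higher there. The 6 endothelial markers listed for this check summed to a linear signal of 1702 in Tet2KO_IR, 2138 in Tet2KO_Sham, 661 in WT_IR and 2349 in WT_Sham, and 3 of the 6 were at least 2-fold lower in WT_IR than in WT_Sham. The 6 fibroblast and mural cell markers summed to 5142, 2521, 1548 and 3386 in these arrays. At least 2-fold lower in WT_IR than in WT_Sham were 3 of 6, while Col1a1 was higher by 0.49 on the log2 scale. All 6 endothelial markers were at or over the floor except in WT_IR, where 5 were, and all 6 fibroblast and mural markers were so in every array. The 5 adipose markers on the array summed to 9527 in Tet2KO_IR, 1446 in Tet2KO_Sham, 608 in WT_IR and 6818 in WT_Sham. Of the 4 measured, 4 were at least 2-fold higher than sham under the Tet2KO label and 3 at least 2-fold lower under WT, and 4, 1, 1 and 4 adipose markers were at or over the floor in these arrays. The part of these cell types in the Ccnd2 values was not tested. In whole-kidney RNA, fewer cells of a type and less RNA per cell cannot be told apart.

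Ccnd3, the third D-type cyclin, had log2 signals of 8.88 in Tet2KO_IR, 9.30 in Tet2KO_Sham, 9.10 in WT_IR and 9.04 in WT_Sham. The ratios to sham were -0.42 and 0.05 on the log2 scale under the Tet2KO and WT labels. Its 3 probe sets did not share a direction: they spanned -0.42 to 0.01 under the Tet2KO label and -0.57 to 0.07 under WT, so no direction is given for this gene.

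The E-type cyclins were near the floor. Ccne1, an activator of CDK2, had log2 signals of 6.40 in Tet2KO_IR, 6.18 in Tet2KO_Sham, 6.53 in WT_IR and 6.07 in WT_Sham. The ratios to sham were 0.22 under the Tet2KO label and 0.46 under WT, and on its other probe set -0.07 and 0.16. Ccne2, the other E-type cyclin, had deposited log2 signals of 5.49 in Tet2KO_IR, 4.99 in Tet2KO_Sham, 6.18 in WT_IR and 4.54 in WT_Sham on its 1 probe set. Only WT_IR was over the floor, so Ccne2 was at least 1.37-fold higher in WT_IR than in WT_Sham and was not measured in the arrays labelled Tet2KO. Without the floor its log2 ratios were 0.50 under the Tet2KO label and 1.64 under WT, where it then passed 2-fold, and with the floor at the 30th percentile the WT value was 1.01.

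The inhibitors were lower after ischemia-reperfusion under either label, each by less than 1.5-fold. Cdkn1b, which encodes p27, had log2 signals of 9.67 in Tet2KO_IR, 10.06 in Tet2KO_Sham, 9.74 in WT_IR and 10.26 in WT_Sham. Both sham arrays exceeded both ischemia-reperfusion arrays. The log2 ratios to sham were -0.40 under the Tet2KO label and -0.53 under WT, against probe set SDs of 0.39 and 0.23, and the second probe set was under the floor in all arrays. Cdkn2c, which encodes the INK4 protein p18, had log2 signals of 8.92 in Tet2KO_IR, 9.49 in Tet2KO_Sham, 9.24 in WT_IR and 9.62 in WT_Sham. Here too the sham arrays were the higher ones, with log2 ratios of -0.58 under the Tet2KO label and -0.38 under WT on the 1 probe set of this gene.

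**Figure D3:**
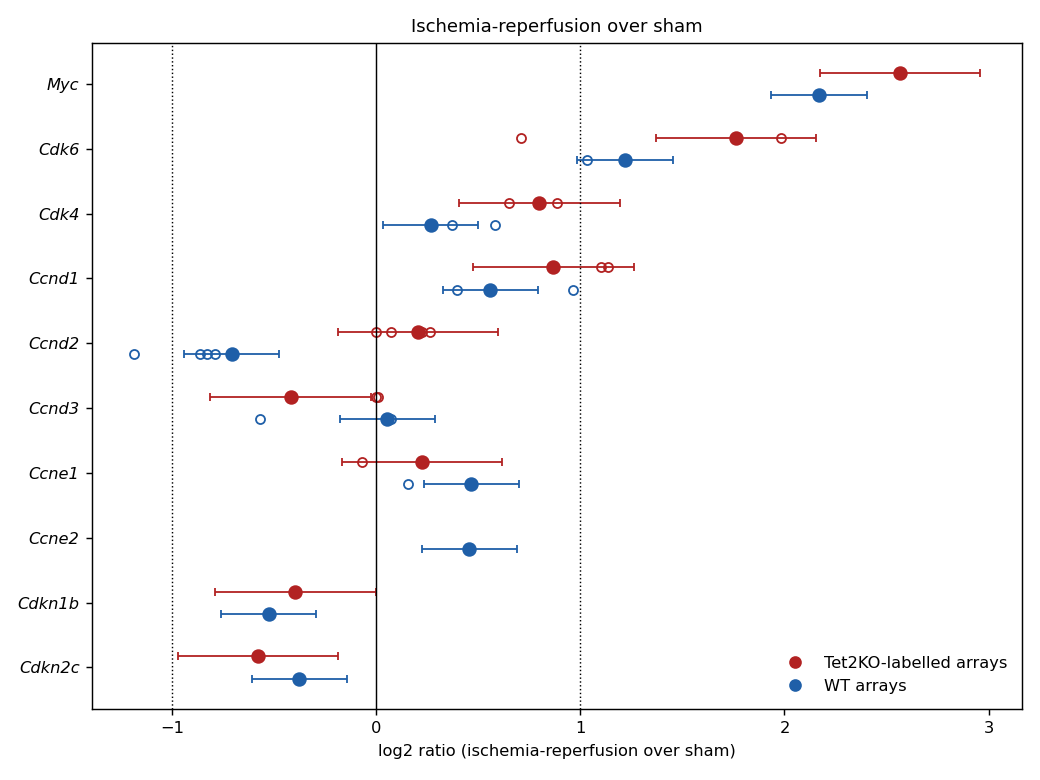
Log2 ratio of ischemia-reperfusion over sham (x axis) for each gene (y axis), red for the arrays labelled Tet2KO and blue for the WT arrays. Filled points are the probe set read for the gene with a bar of 1 SD between probe sets of a gene over the whole array (technical spread, not between mice), open points the other probe sets measured in that comparison, and dotted lines mark 2-fold; the filled points of Myc and Cdk6 lie past the line in both colours, and those of Ccnd2 lie at 0.20 in red and -0.71 in blue.

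The comparison of genotype labels asks whether the kidneys differed before and after injury. After sham, 0 of 9 measured members differed by 2-fold, where 1.03% of 13474 genes did, and 0 of 9 differed by 1.5-fold, where 3.45% of genes did. Among the members the largest log2 ratio of Tet2KO_Sham over WT_Sham was 0.42, for Cdk6, and the lowest was -0.20, for Cdkn1b. The Cdk6 value was 0.20 on its other measured probe set. The median of the members was 0.04, equal to the 0.04 over all measured genes. Ccnd2 had a log2 ratio of 0.02 on the probe set read for it but between -1.16 and -0.36 on 4 others, so its level after sham depended on the probe set. In these arrays the adipose markers also differed: the 5 on the array summed to a linear signal of 1446 in Tet2KO_Sham and 6818 in WT_Sham, with 1 and 4 of them at or over the floor, and their part was not tested.

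After ischemia-reperfusion, 0 of 10 members differed by 2-fold, where 7.68% of 13492 genes did, and 2 of 10 differed by 1.5-fold, where 21% of genes did. These were Cdk6 and Ccnd2, both higher in Tet2KO_IR than in WT_IR. Cdk6 had a log2 ratio of 0.97 (1.95-fold), with 1.15 on its other bright probe set, and was thus at 2-fold there. The Ccnd2 ratio was 0.93 (1.91-fold), and its other 4 measured probe sets gave 0.29 to 0.65. Cdk4 was higher by 0.57 and Ccnd1 by 0.45 on the log2 scale, with all 3 probe sets of each above 0. The Myc ratio was 0.29, within the probe set SD of 0.32, and those of Ccne1 and Cdkn1b were -0.13 and -0.07. The median of the members was 0.11, beside -0.01 over all measured genes.

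**Figure D4:**
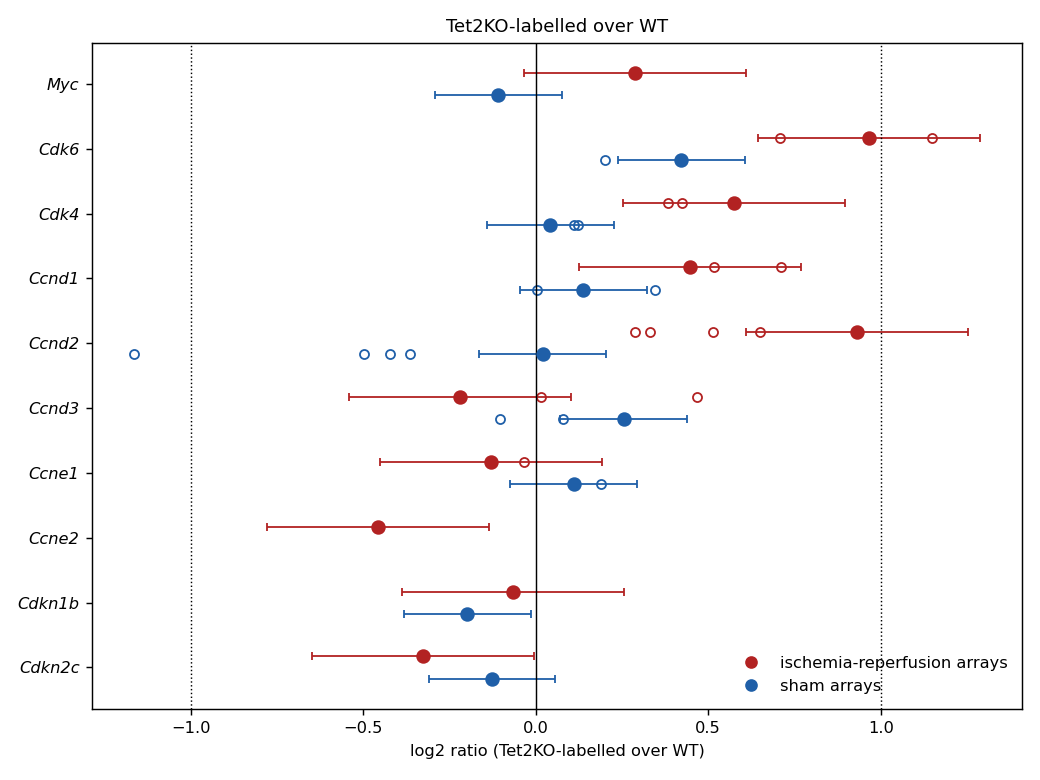
Log2 ratio of the arrays labelled Tet2KO over WT (x axis) for each gene (y axis), red for the ischemia-reperfusion arrays and blue for the sham arrays. Symbols and bars are as for the ratios to sham; Cdk6, Cdk4 and Ccnd1 have every red point right of 0, and the blue points of Ccnd2 spread from -1.16 to 0.02.

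The difference between the responses of the labels was under 2-fold for all 10 members, where 9.52% of 13808 genes passed it. It was 0.91 on the log2 scale for Ccnd2, the only member past 1.5-fold, where 23.6% of genes were. All 5 measured Ccnd2 probe sets had a positive difference, from 0.83 to 1.45. The difference was 0.55 for Cdk6, 0.53 for Cdk4, 0.40 for Myc and 0.31 for Ccnd1, each with the arrays labelled Tet2KO responding more, beside a probe set SD of 0.37. It was -0.47 for Ccnd3 and -0.46 for Ccne2, whose value rests on signals at the floor. The median over the members was 0.22, beside -0.03 over all measured genes. Without the floor Ccne2 had a difference of -1.13.

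The sum of tubule injury markers, like Myc, Cdk6, Cdk4 and Ccnd1, was higher after ischemia-reperfusion under either label. The 6 injury markers, among them Havcr1, Lcn2 and Krt20, summed to a linear signal of 40867 in Tet2KO_IR, 565 in Tet2KO_Sham, 22684 in WT_IR and 1656 in WT_Sham. After sham this sum was thus lower under the Tet2KO label, where 2 of the 6 markers were at least 2-fold lower. These were Havcr1 and Krt18, with log2 ratios of -2.52 and -2.18, while Vcam1 and Sox9 were higher, with 0.77 and 0.13. The log2 ratios of Tet2KO_Sham over WT_Sham were 0.42 for Cdk6, 0.14 for Ccnd1, 0.04 for Cdk4 and -0.11 for Myc. At 2-fold, 6 of 6 injury markers were higher in Tet2KO_IR than in Tet2KO_Sham and 3 of 6 in WT_IR than in WT_Sham. Under WT the log2 ratios to sham of Sox9, Krt18 and Vcam1 were 0.69, 0.61 and -0.10. The 5 neutrophil markers on the array summed to 2186, 252, 429 and 273 in these arrays, and the 6 macrophage markers to 1284, 3548, 1633 and 3541. The 8 proximal tubule markers summed to 35127, 87975, 63957 and 86825. Of 4 measured neutrophil markers 2, S100a8 and S100a9, were at least 2-fold higher than sham under the Tet2KO label. Under WT 1 of 3, S100a8, was so. Csf3r, another neutrophil marker, had log2 ratios to sham of 0.30 under the Tet2KO label and 0.04 under WT. The macrophage markers went both ways: of 5 measured, 1 was at least 2-fold higher and 2 lower than sham under the Tet2KO label. Under WT 1 was higher and 3 were lower. Cd68 was the higher one, with log2 ratios of at least 2.16 and at least 2.30, while Csf1r had -2.27 and -1.36. Of these lists 6, 4, 6 and 6 injury markers, 4, 2, 3 and 2 neutrophil markers, 5, 4, 5 and 4 macrophage markers and all 8 proximal tubule markers were at or over the floor. Their part in the values of the cell cycle genes was not tested.

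Of the 5 other inhibitors of cyclin-dependent kinases, 4 were measured. Under the Tet2KO label 2 were at least 2-fold higher than sham, and under WT 1 was higher and 2 were lower. Cdkn1a, which encodes p21, a p53 target, had log2 signals of 11.61 in Tet2KO_IR, 7.43 in Tet2KO_Sham, 9.75 in WT_IR and 7.75 in WT_Sham. It was 18.2-fold higher than sham under the Tet2KO label and 4.001-fold higher under WT, and its other probe set gave log2 ratios of 3.82 and 1.93. Cdkn1c, which encodes p57 and is a podocyte gene in adult kidney, had log2 signals of 9.61, 8.38, 6.55 and 8.57 in these arrays. It was thus higher than sham under the Tet2KO label, with a log2 ratio of 1.23, and lower under WT, with -2.02. Of the 4 podocyte markers on the array, 3 were at least 2-fold higher than sham under the Tet2KO label and 2 at least 2-fold lower under WT, and they summed to a linear signal of 2796 in Tet2KO_IR, 1362 in Tet2KO_Sham, 392 in WT_IR and 1328 in WT_Sham, with 4, 4, 3 and 4 at or over the floor; their part in the Cdkn1c values was not tested. Cdkn2b, an INK4 gene, was highest in WT_Sham, with log2 signals of 6.74, 6.49, 6.59 and 7.83. Cdkn2d, another INK4 gene, had log2 ratios to sham of -0.08 under the Tet2KO label and -0.21 under WT, and Cdkn2a was under the floor in every array.

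Counts here rest on the probe set read for each gene, and some other probe sets passed 2-fold. Under the Tet2KO label others gave log2 ratios of -1.15 for Cks2, -1.10 for Cdk7, -1.04 for Ccnh and -1.01 for Mlx. The probe sets read gave -0.66, -0.14, 0.35 and -0.47. Another probe set of Skp2 had a difference of responses of -1.13. Other probe sets also fell short of 2-fold for genes that were counted. Under the Tet2KO label Nolc1 was read at 1.002, while others gave -0.32 and 0.89. Ncl was read at 1.11, while others gave 0.29, 0.70 and 1.14. Under WT Mcm7 was read at 1.06, while others gave 0.99, 0.99 and 0.90. E2f3 was read at 1.05 there, while another gave 0.22. Among 8 kinases and activators of the G1/S step, Cks1b, whose product helps the SCF ligase recognise p27, was the only one at 2-fold in either response. Its log2 signals were 9.87 in Tet2KO_IR, 7.63 in Tet2KO_Sham, 9.54 in WT_IR and 7.61 in WT_Sham, and its log2 ratios to sham were 2.25 under the Tet2KO label and 1.93 under WT, with 1.48 and 1.505 on the other probe set. None of 10 genes of p27 and cyclin E turnover reached 2-fold in any comparison. Skp2, the substrate receptor for p27, had log2 ratios to sham of -0.09 under the Tet2KO label and 0.89 under WT. Of the RB and E2F genes, 1 of 11 measured was at 2-fold or more under the Tet2KO label, where it was lower, and 1 of 12 under WT, where it was higher. Tfdp2, an E2F partner, had a log2 ratio of -1.36 under the Tet2KO label and -0.61 under WT, but its other bright probe sets gave -0.48 and 0.35 under the Tet2KO label. E2f3, an activating E2F, had ratios of 0.72 and 1.05. All 10 genes of the MYC network, the partners and rivals of MYC for MAX included, were under 2-fold in every comparison. Of all measured genes, 12.9% were at 2-fold in the response under the Tet2KO label and 4.24% under WT. In the other comparisons the share was 1.03% to 9.52%. Counts near 0 in lists this short therefore say little about the lists.

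Target genes of the pathway are set beside the 6.06% of all measured genes that were at least 2-fold higher under the Tet2KO label and the 2.06% under WT. The lists were chosen with earlier results of these data known, so these counts are not an independent check. Of 13 measured E2F targets of S phase, 7 were at 2-fold or more above sham under the Tet2KO label and 9 under WT, with 0 lower, and their median log2 ratios were 1.30 and 1.35, beside -0.02 and 0.02 over all measured genes. Mcm6, a subunit of the replicative helicase, had log2 ratios of 2.51 and 2.65, and the licensing factor Cdt1 1.71 and 2.26. The helicase subunits Mcm2, Mcm3, Mcm4 and Mcm5 had ratios of 1.40, 1.84, 1.49 and at least 1.30 under the Tet2KO label, and of 1.35, 1.76, 1.66 and at least 1.70 under WT. The subunit Mcm7 had ratios of 0.52 and 1.06, and Ung, a uracil glycosylase gene at the floor after sham, at least 1.45 and at least 1.08. Rrm2, a subunit of ribonucleotide reductase, had 0.90 and 1.76, and in Tet2KO_Sham it was higher than in WT_Sham by 1.01. Of 14 MYC targets, 5 were higher and 1 lower at 2-fold under the Tet2KO label, and 2 higher and 0 lower under WT, with median log2 ratios of 0.85 and 0.59. The nucleolar protein genes Nop56 and Nop58 had log2 ratios of 1.16 and 1.31 under the Tet2KO label and 1.11 and 0.90 under WT. Cad, for pyrimidine synthesis, had 1.41 and 0.81, the nucleolar genes Ncl and Nolc1 had 1.11 and 1.002 under the Tet2KO label and 0.52 and 0.70 under WT, and the spermidine synthase gene Srm had 0.74 and 1.05. Odc1, the polyamine synthesis enzyme and a known MYC target, went the other way, with log2 ratios of -1.34 and -0.91. Later cyclins and mitosis genes were mostly near the floor: 6 and 5 of the 9 on the array were measured, and Cdk1 was the only one at 2-fold, with 1.04 and 1.33.

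**Figure D5:**
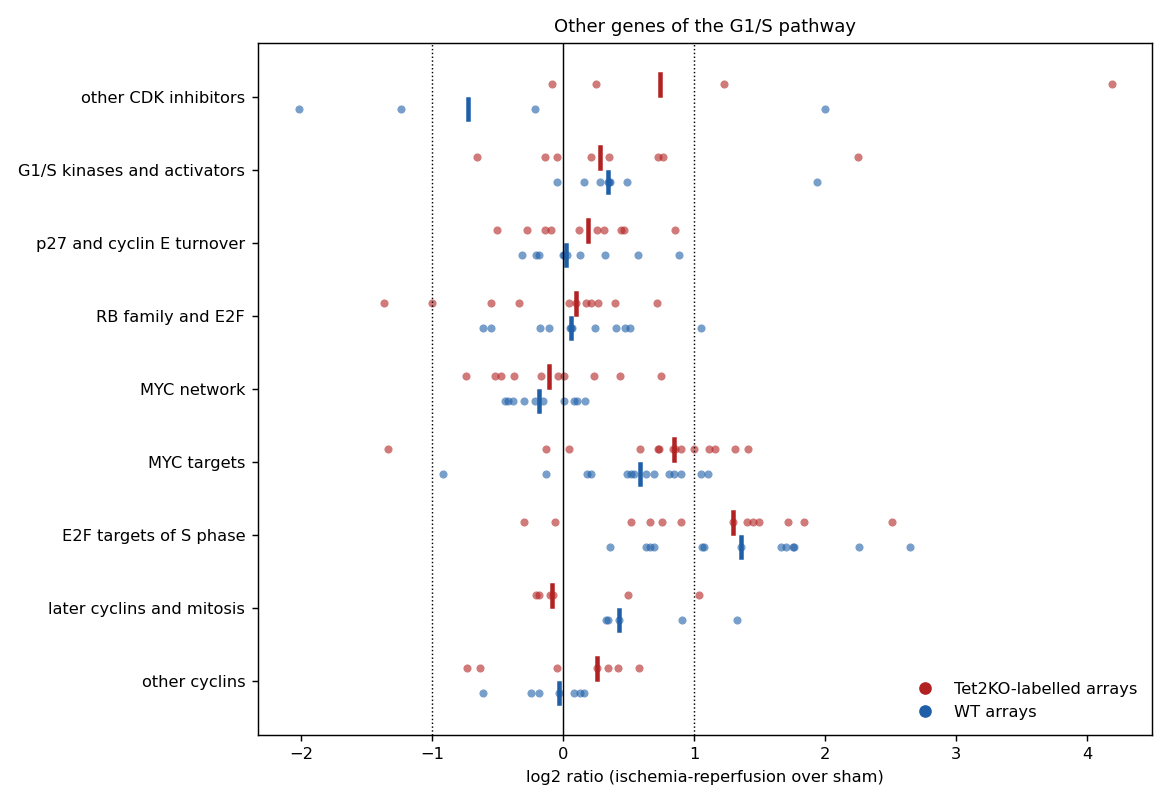
Log2 ratio of ischemia-reperfusion over sham (x axis) for genes of 9 lists of the G1/S pathway that hold none of the 10 members (y axis), red for the arrays labelled Tet2KO and blue for the WT arrays. Points are measured genes, thick ticks list medians and dotted lines 2-fold; the E2F target medians are 1.30 and 1.35, while those of the MYC network are -0.10 and -0.18.

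Genes of most similar pattern were sought for the members at 2-fold, as the smallest distance between log2 signals centred on each gene's mean over the 4 arrays, among 12445 other genes over the floor in all arrays. For Cdk6 these were Col18a1, a basement membrane collagen, at a distance of 0.15, Nkain1 at 0.17 and Tmcc3 at 0.17. For Myc they were Krt8, a keratin of simple epithelia, at 0.22, the carbonyl reductase gene Cbr3 at 0.25 and the chloride channel gene Cftr at 0.26. Krt8 had log2 signals of 13.70 in Tet2KO_IR, 11.05 in Tet2KO_Sham, 13.16 in WT_IR and 11.28 in WT_Sham. The distances rest on 4 arrays.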

How the data were processed

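The values are log2 signals of 1 array per group as the authors deposited them, a unit read from their range of 2.51 to 14.97. MAS5 is named per the submitters' processing notes; its version, the scaling and any filter are not given in the sources used here. With RNA of 3 mice pooled per array, no test was made. Probe sets were named through the platform annotation: 34945 had 1 gene symbol, 932 had several and 9160 were not listed. A gene was read from its probe set of highest mean log2 signal, with probe sets ending in _x_at used only where there was no other. Signals under the 40th percentile were set to it, and log2 ratios were counted at 2-fold. The 10 members and all lists were chosen with earlier results of these data known. All members were named. Genes of other lists were named where at 2-fold in 1 of the 4 pairwise comparisons, with exceptions chosen after their values were seen. These were Skp2, Cks2, Ccng2, Cdkn2a, Cdkn2d, Cdk7, Ccnh, Mlx, Ccnl2, Col1a1 and Csf3r. The 3 genes of most similar pattern were named for members at 2-fold. The calculation was tested on simulated data with known changes. Alternatives were other floors, no floor, a pseudocount of 50, other probe set rules, median centring, quantile normalization, a 1.5-fold threshold and the other sham array as control. Python 3.11.15, numpy 2.4.6 and pandas 2.3.3 were used.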

Additional observations from a re-analysis of the deposited data

Results flagged for a closer look

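Ccnd2 and Ccnd3 are listed because the ratio to sham had opposite signs under the 2 labels; with 1 array per group the difference was not tested, and the ratio nearer 0 lay within the probe set SD for either gene. For Ccnd2 the log2 ratio of ischemia-reperfusion over sham was 0.20 under the Tet2KO label and -0.71 under WT, a difference of 0.91. For Ccnd3 it was -0.42 under the Tet2KO label and 0.05 under WT, a difference of -0.47, which its other probe sets did not share: they gave 0.57 and -0.06.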

How the results depend on the processing

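No paired analysis was possible because each group has 1 array, and for the same reason no replicate could be left out. Of the 5 counts of members at 2-fold, that of Tet2KO_Sham over WT_Sham was 0 under every alternative run. For Tet2KO_IR over Tet2KO_Sham the count of 2 became 1 with plain _at probe sets, which hold none for Myc, 3 with the median over probe sets, 3 with WT_Sham as control and 4 at 1.5-fold. For WT_IR over WT_Sham the count of 2 became 1 with plain _at probe sets, 1 with Tet2KO_Sham as control, 3 without the floor, 3 with the floor at the 30th percentile and 3 at 1.5-fold. For Tet2KO_IR over WT_IR the count of 0 became 1 with the median over probe sets and 2 at 1.5-fold, and for the difference of responses it became 1 without the floor and 1 at 1.5-fold. No value at 2-fold reversed its sign, and 17 of 394 gene values moved by more than the probe set SD. The members' median for Tet2KO_IR over WT_IR was -0.07 with plain _at probe sets, against 0.11. The signals of Ccne1 and Ccne2 lie near the floor, which limits their ratios.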

Other observations

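Cks2, the sister gene of Cks1b, was lower in Tet2KO_IR than in WT_IR and was chosen after its values were seen. Its log2 signals were 10.78 in Tet2KO_IR, 11.44 in Tet2KO_Sham, 11.52 in WT_IR and 11.17 in WT_Sham, and its other probe set gave 9.93, 11.08, 11.14 and 10.70. The lowest array was Tet2KO_IR on both probe sets. The difference of responses was -1.01 on the log2 scale, and -1.59 on the other probe set. Of 7 other cyclin genes, 0 were at 2-fold in any comparison on the probe set read for the gene. Between 1.03% and 12.9% of all measured genes were so, depending on the comparison, and a list this short says little. Ccng2, a cyclin linked to cell cycle arrest, had log2 ratios to sham of -0.63 under the Tet2KO label and -0.61 under WT. Its other probe set gave -1.16 and -0.83 and thus passed 2-fold under the Tet2KO label. Another probe set of Ccnl2 had a difference of responses of 1.09.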
